A study of Rattus norvegicus with 8 samples.

Results

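GABA-A receptor subunit genes were examined in rat hippocampus after intracranial self-stimulation (ICSS), in which an animal acts to obtain short bursts of current to its own brain. The genes were Gabra2, Gabra3, Gabra4, Gabra5, Gabrb1, Gabrb2 and Gabrd, taken as every array feature whose platform annotation names one of them. All 7 genes were measured, on 9 of 45220 features, and they are 7 of 14871 named genes. The animals were male Wistar rats aged 13 weeks, each with a monopolar electrode aimed at the lateral hypothalamus. After 7 days of recovery from surgery, both groups had 20 min sessions in the box on consecutive days, the ICSS rats to set their current and the Sham rats without any. In the final session the ICSS group self-administered 2500 trains, and the Sham group, which carried the electrode too, explored the box unstimulated for 40 min. There were 4 pools per group, each of the hippocampi of 3 rats from the electrode's side, so the spread between pools is smaller than the spread between rats. Pool RNA carried Cy5 and shared its array with a common reference of brain tissue from rats of both groups, in Cy3. A value is thus the log2 of pool over reference, and the shared denominator drops out of any contrast between the groups.

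GABA-A receptors are pentameric chloride channels that open when GABA, the main inhibitory transmitter of the brain, binds. Receptors at synapses, which give brief inhibitory currents, usually join alpha subunits such as alpha 2 or alpha 3 with beta and gamma subunits. Receptors outside synapses, which answer ambient GABA with a lasting tonic current, often hold alpha 5, or alpha 4 with delta, a pairing known from dentate granule cells and thalamic relay neurons. Here Gabra2 and Gabra3 were treated as synaptic and Gabra4, Gabra5 and Gabrd as extrasynaptic, while the beta genes Gabrb1 and Gabrb2, which serve both kinds of receptor, stood in neither class. The synaptic class rests on 2 genes.

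The 2 genes with the largest differences between groups were Gabra4 and Gabrd, and the stretches just before their starts are shown because Gabra4 is known in rat neurons as a target of Egr3, a transcription factor of the early growth response family. The sequences are the 250 bases upstream of the gene start in RefSeq on GRCr8, at chr14:36944497-36944746 on the plus strand for Gabra4 and at chr5:171252710-171252959 on the minus strand for Gabrd, written 5′ to 3′ of the gene. Capitals mark every match, on either strand, to GCGNGGGCG or to GGGCGG. The first was used here as a pattern for early growth response sites, with any base allowed at N, and the second is the GC box.
Gabra4: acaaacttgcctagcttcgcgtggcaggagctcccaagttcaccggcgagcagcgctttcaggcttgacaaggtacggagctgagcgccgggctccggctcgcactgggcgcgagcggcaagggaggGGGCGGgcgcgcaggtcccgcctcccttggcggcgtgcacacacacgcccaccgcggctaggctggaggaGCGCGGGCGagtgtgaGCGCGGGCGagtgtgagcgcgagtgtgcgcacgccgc
Gabrd: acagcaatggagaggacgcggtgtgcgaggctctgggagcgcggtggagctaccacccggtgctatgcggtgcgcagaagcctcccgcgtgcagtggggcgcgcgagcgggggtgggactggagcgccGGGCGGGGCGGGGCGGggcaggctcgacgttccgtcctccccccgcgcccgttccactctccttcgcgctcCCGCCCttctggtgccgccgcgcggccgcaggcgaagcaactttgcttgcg
The Gabra4 window held GCGNGGGCG at 2 places, from 53 to 45 and from 37 to 29 bases before the start, both with c at N. The other 5 genes with a window in the table, Gabra3, Gabra5, Gabrb1, Gabrb2 and Gabrd, held none, and 4.29% of all 33469 windows of this length held at least 1. Gabrd held GGGCGG at 4 places, 3 of which overlap at their ends, against 1 place each in Gabra4 and Gabra5, and 30.5% of all windows held it. None of the 6 windows held the cAMP response element TGACGTCA or its core TGACG, which stood in 1.59% and 18.2% of all windows. GC content was 71.6% for Gabra4, 74% for Gabrd and 76.4% for Gabra5 but 40.4% to 49.2% for Gabra3, Gabrb1 and Gabrb2, and a GC-rich motif is met more easily in GC-rich windows. Such matches describe letters in a window and say nothing of binding in these tissues.

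Array medians ran from -0.032 to 0.016, and pairs of arrays had r = 0.586 to 0.873, Sham replicate 4 being the least like the others. All 7 markers of hippocampal fields measured were above the reference in the Sham mean, with list means between 0.94 and 1.20 over the 8 pools, and 14 of 16 thalamic markers were below it. The precision of every comparison is limited by the number of arrays.

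Against the common reference, which per the labels held hippocampal, thalamic and cortical tissue, the subunit genes fell on both sides of 0. Gabrb1, Gabra5 and Gabra2 were above the reference in all 8 pools, as were 14.1% of named genes, and Gabrb2, Gabra3 and Gabrd were below it in all 8, as were 16.9%. In the Sham pools the mean log2 ratio was 0.58 ± 0.097 for Gabrb1 (SD, n = 4 for this and the following genes). It was 0.54 ± 0.055 for Gabra5, which encodes the alpha 5 subunit and is known for high expression in hippocampal pyramidal neurons. Gabra2, the alpha 2 gene, followed with 0.49 ± 0.094. As gene means these 3 ratios overlapped between pools and cannot be put in an order. Gabra5 is the mean of 2 features that differ in level. In Sham pools 1 lay from 1.01 to 1.25, above all pools of Gabrb1 and Gabra2, and the other from -0.18 to 0.014. Gabra4 stood at -0.067 ± 0.17 in Sham pools and Gabrb2 at -0.26 ± 0.067, and their pools overlapped too. Gabra3 had -0.71 ± 0.28, with its highest Sham pool, replicate 4 at -0.32, reaching into the range of Gabrb2. Gabrd was lowest, at -1.12 ± 0.096, below every Sham pool of Gabra3, though only by -0.99 against -0.98 at the nearest pools. Ratios order genes by enrichment over the reference and not by abundance, and Cy5 and Cy3 were not swapped, so a dye effect of a probe is part of its ratio.

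**Figure D1:**
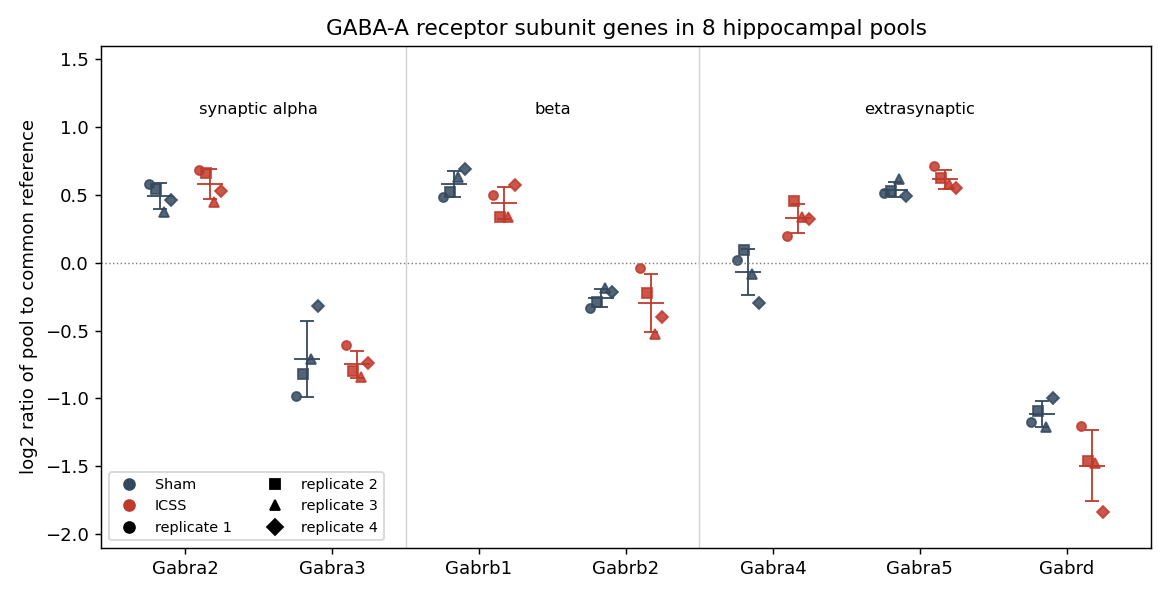
The log2 ratio of each pool to the common reference (vertical axis) is shown for the 7 subunit genes, grouped by class, with Sham in blue and ICSS in red; symbols give the replicate, and bars the mean and SD of 4 pools. The ICSS pools of Gabra4 lie between 0.20 and 0.45, above all Sham pools, and those of Gabrd between -1.84 and -1.20, against -1.21 to -0.99 in Sham pools.

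Both genes with 2 features were checked feature by feature. For Gabra5 the features differed widely in level: the feature annotated with the RefSeq transcript gave 1.16 ± 0.11 in Sham and 1.25 ± 0.12 in ICSS pools (SD, n = 4 each). The feature annotated with another GenBank entry gave -0.080 ± 0.094 and -0.016 ± 0.061. The gene mean therefore understates the enrichment that the first feature shows, while both features gave small positive differences between groups, 0.091 (SE 0.080) and 0.064 (SE 0.066). For Gabrb2 the features lay closer together, at -0.29 ± 0.057 and -0.23 ± 0.10 in Sham pools, with differences of -0.078 (SE 0.10) and -0.0011 (SE 0.10). The other 5 genes had 1 feature each, so nothing on the array checks their probes.

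The comparison of ICSS with Sham asked how self-stimulation alters hippocampal expression of these genes. None of the 7 genes passed the threshold of 0.05 for the limma adjusted p, which 0.0461% of 34738 genes and unnamed probes did. Gabra4 and Gabrd had an unadjusted limma p below 0.05, or 2 of 7, where 12.6% of all units did. Their differences had opposite signs, 0.40 for Gabra4 and -0.38 for Gabrd on the log2 scale, and a difference at least as large in either direction was met in 2.06% and 2.33% of all units. The median difference over the 7 genes was -0.040, against 0.0078 over all units, with 3 genes higher and 4 lower by their means. At the level of features none of 9 passed, where 0.117% of 45220 features did, and again only the features of Gabra4 and Gabrd had an unadjusted p below 0.05.

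Gabra4 encodes alpha 4, the extrasynaptic alpha subunit of dentate granule cells and thalamic neurons, which gives receptors that do not respond to classical benzodiazepines. Its log2 ratios were 0.20, 0.45, 0.34 and 0.33 in ICSS replicates 1 to 4. In Sham replicates 1 to 4 they were 0.020, 0.093, -0.082 and -0.30. All ICSS pools lay above all Sham pools, which was true in this direction of 4.13% of all units and in either direction of 7.80%, and Gabra4 was the only one of the 7 genes whose pools did not overlap. The means were 0.33 ± 0.11 in the ICSS group and -0.067 ± 0.17 in the Sham group (SD over 4 pools), a 1.32-fold higher ratio with a 95% interval from 1.14 to 1.51. The difference did not pass over all units (0.40, SE 0.091, limma adjusted p = 0.153), and ranked 336 of 34738 by p. The lowest Sham pool was replicate 4, and without it the difference was 0.32.

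Gabrd encodes delta, the partner of alpha 4 in extrasynaptic receptors, which are known for high affinity to GABA and for their response to neurosteroids. Its log2 ratios in ICSS replicates 1 to 4 were -1.20, -1.46, -1.48 and -1.84. The Sham replicates 1 to 4 gave -1.17, -1.09, -1.21 and -0.99. ICSS replicate 1 lay just above Sham replicate 3, so the pools overlapped, while the other ICSS pools were lower than every Sham pool. The means were -1.50 ± 0.26 in the ICSS group and -1.12 ± 0.096 in the Sham group (SD over 4 pools), a ratio 1.30 times higher in Sham. The difference of -0.38 (SE 0.12, 95% interval -0.64 to -0.11) did not pass (limma adjusted p = 0.249). ICSS replicate 4 was the lowest pool, and without it the difference was -0.26. ICSS replicate 1 was the only array with a median above 0, and with each array centred on its median the pools no longer overlapped: the ICSS pools then lay at -1.82 to -1.22 and the Sham pools at -1.19 to -0.96, where 7.86% of all units did not overlap.

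Set against each other within a pool, the partner genes Gabra4 and Gabrd separated the groups. The log2 ratio of Gabra4 minus that of Gabrd was 1.40, 1.92, 1.82 and 2.17 in ICSS replicates 1 to 4. It was 1.19, 1.19, 1.13 and 0.70 in Sham replicates 1 to 4. The means were 1.82 ± 0.32 and 1.05 ± 0.24 (SD, n = 4 each), a difference of 0.77, and every ICSS pool lay above every Sham pool. With single pools left out the difference ranged from 0.66 to 0.92. Other contrasts within a pool overlapped between groups: Gabra4 minus Gabra2 differed by 0.31, Gabra4 minus Gabra5 by 0.32 and Gabra2 minus Gabrb1 by 0.23. Because Gabra4 and Gabrd were paired with their differences known, and Gabra4 separated the groups by itself, the value is a description and was not tested. Expression was measured in bulk tissue, where fewer cells of a type and less RNA per cell cannot be told apart.

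Gabra5, the third extrasynaptic gene, ranged from 0.55 to 0.71 in ICSS pools, against 0.50 to 0.62 in Sham pools, and the groups overlapped. Its difference of 0.077 (SE 0.058, 95% interval -0.053 to 0.21) did not pass (limma adjusted p = 0.610). Among the synaptic genes, Gabra2, whose product is known at synapses on the cell body and the axon initial segment of pyramidal neurons, was at 0.68, 0.66, 0.45 and 0.53 in ICSS replicates 1 to 4. In Sham replicates 1 to 4 it was at 0.58, 0.55, 0.37 and 0.46, and the groups overlapped. Its difference was 0.089 (SE 0.074, 95% interval -0.075 to 0.25, limma adjusted p = 0.644). Gabra3, the alpha 3 gene, was from -0.84 to -0.61 under ICSS, within its Sham range of -0.98 to -0.32. Its difference of -0.041 (SE 0.13, 95% interval -0.32 to 0.24, limma adjusted p = 0.917) had the widest interval of the 7 genes, and turned to 0.089 without Sham replicate 4.

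The beta genes encode the subunits that bind GABA together with alpha. Gabrb1 was at 0.50, 0.34, 0.34 and 0.57 in ICSS replicates 1 to 4. In Sham replicates 1 to 4 it was at 0.48, 0.52, 0.64 and 0.69, so that 2 ICSS pools lay below all Sham pools and the others within them. The difference was -0.15 (SE 0.076, 95% interval -0.31 to 0.024, limma adjusted p = 0.463). Gabrb2, known as a beta partner of alpha 4 with delta in the thalamus, spread more among ICSS pools (-0.53 to -0.039) than among Sham pools (-0.33 to -0.19). Its difference of -0.040 (SE 0.098, 95% interval -0.26 to 0.18, limma adjusted p = 0.894) turned to 0.037 without ICSS replicate 3.

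**Figure D2:**
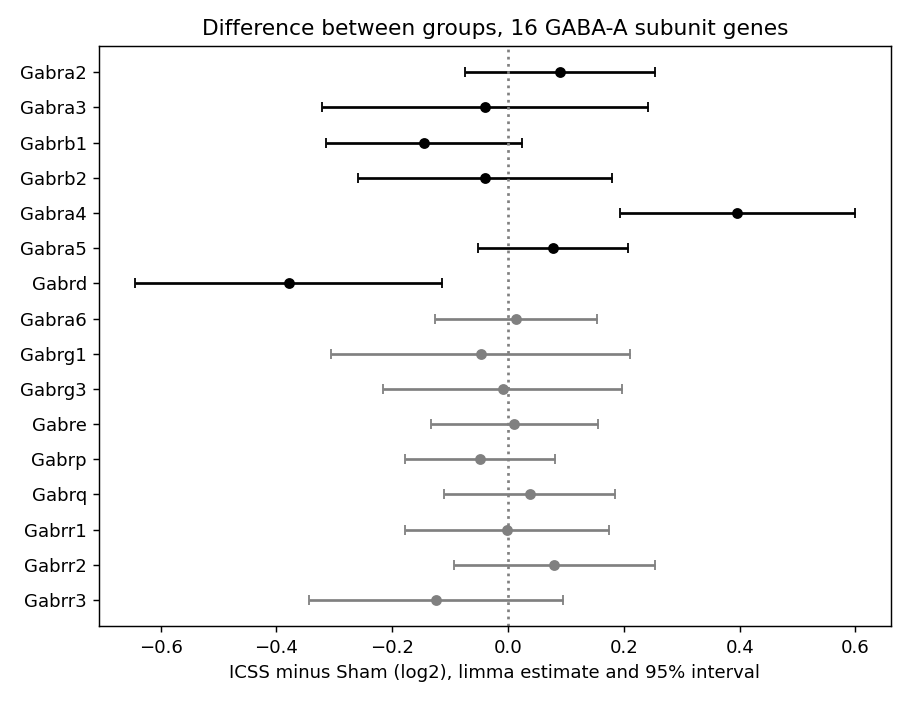
Points give the limma log2 difference, ICSS over Sham, and lines its 95% interval for the 7 subunit genes (black) and 9 further GABA-A subunit genes (grey), each from 4 ICSS and 4 Sham pools. The intervals of Gabra4 (0.19 to 0.60) and Gabrd (-0.64 to -0.11) do not reach 0 before adjustment, while those of the other 14 genes do.

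Averaged by class, synaptic and extrasynaptic genes did not part. The mean of Gabra2 and Gabra3 was -0.083 ± 0.097 in the ICSS group and -0.11 ± 0.12 in the Sham group (SD over 4 pools). The mean of Gabra4, Gabra5 and Gabrd was -0.18 ± 0.099 in ICSS and -0.21 ± 0.045 in Sham pools. The extrasynaptic minus the synaptic mean ranged from -0.22 to 0.011 in ICSS pools, against -0.34 to -0.012 in Sham pools, and the groups differed by 0.0070, less than the SD of either group. The difference was spread unevenly within the extrasynaptic class, where the values of Gabra4 and Gabrd, of nearly equal size and opposite sign, cancelled in the mean. The mean of the beta genes was 0.072 ± 0.13 in ICSS and 0.16 ± 0.080 in Sham pools. These class means were not tested, since the classes were set with earlier results known.

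**Figure D3:**
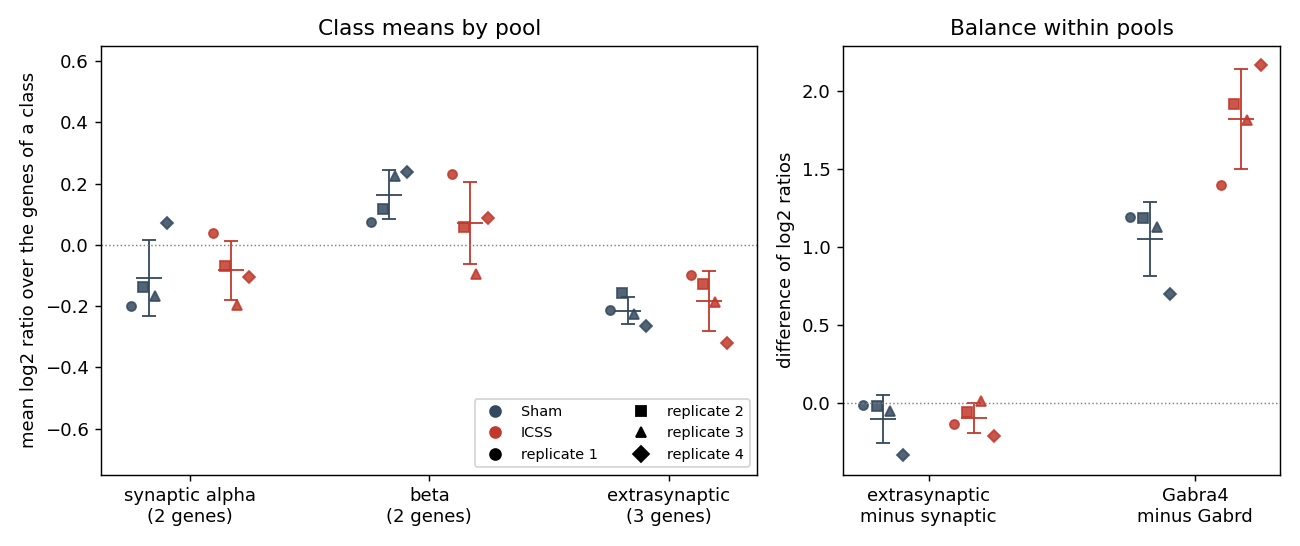
Left, the mean log2 ratio over the genes of each class by pool; right, the difference of log2 ratios within each pool, extrasynaptic minus synaptic mean and Gabra4 minus Gabrd (Sham blue, ICSS red, symbols for replicates, bars for the mean and SD of 4 pools). Class means overlap between groups, and Gabra4 minus Gabrd lies from 1.40 to 2.17 in ICSS pools, against 0.70 to 1.19 in Sham pools. That pair was chosen with the differences of its genes known and was not tested.

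In the RefSeq gene order of GRCr8, Gabrb1, Gabra4, Gabra2 and Gabrg1 follow each other on chromosome 14, with the coding gene Cox7b2 between Gabra4 and Gabra2. Along this order the differences were -0.15, 0.40, 0.089 and -0.047, so the subunit genes on both sides of Gabra4 lay nearer 0. Gabrd stands apart from all other subunit genes, on chromosome 5 between Prkcz and Cfap74.

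Over the 8 pools Gabra4 ran against several other members. Of 21 pairs of the 7 genes, the lowest correlation was that of Gabra4 with Gabrb1 (Pearson r = -0.82, and -0.73 for deviations from the group means), followed by Gabra4 with Gabrd (-0.76 and -0.37). Gabra4 and Gabra3 had r = -0.55 over all pools and -0.88 within groups, where Sham replicate 4 was lowest in the former gene and highest in the latter. The highest over all pools was that of Gabra3 with Gabrb1 (0.64 and 0.73). All values of a pool come from 1 array, and these correlations are descriptions. Among all named genes the patterns most like that of Gabra4 were those of Ifrd1, a transcriptional coregulator gene (r = 0.994), Eprs1, a transfer RNA synthetase gene (0.991), and H3f3b, a histone H3.3 gene (0.987). Within groups these 3 had r = 0.981, 0.968 and 0.975. Ifrd1 ranged from 0.65 to 0.90 in ICSS pools, against 0.10 to 0.49 in Sham pools. Its groups differed by 0.46 (SE 0.094, limma adjusted p = 0.130). For Gabrd the closest were Sfswap, a splicing regulator gene (0.988), Ogg1, which encodes a glycosylase that removes oxidised guanine (0.977), and Mss51 (0.970). Above r = 0.9 lay 116 named genes for Gabra4 and 92 for Gabrd, or 0.780% and 0.619%.

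None of the 9 further GABA-A subunit genes measured passed either, and the range of their differences, -0.12 to 0.080, lay within those of Gabra4 and Gabrd. Gabrr3, a rho subunit gene, had the lowest (-0.12, SE 0.098) and Gabrr2, another rho gene, the highest (0.080, SE 0.078). The gamma genes Gabrg1 and Gabrg3 differed by -0.047 (SE 0.12) and -0.0093 (SE 0.092). Gabra6, the alpha subunit known from cerebellar granule cells, which can also pair with delta, differed by 0.014 (SE 0.063). Gabre, Gabrp, Gabrq and Gabrr1, the genes of epsilon, pi, theta and a rho subunit, differed by 0.011, -0.048, 0.037 and -0.0016. The smallest limma adjusted p among these 9 genes was 0.631, and their median difference was -0.0016. Spot intensities were not used, so a small difference from a dim probe could not be told from an unchanged gene.

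Of 41 genes that act on GABA-A receptors or on the GABA signal, 4 had a difference at least as large as that of Gabra4 in either direction, where 2.06% of all units did: Clcn2, Plcl1, Slc6a13 and Hap1. None of the 4 passed the adjusted threshold. Of 18 anchoring and trafficking genes measured none passed, 8 were higher and 10 lower by their means, and the median was -0.021. Ubqln1, whose product binds receptor subunits and slows their degradation, ranged from 0.18 to 0.48 in ICSS pools, against 0.10 to 0.12 in Sham pools (0.22, SE 0.067, limma adjusted p = 0.243). Plcl1, which encodes a scaffold that binds the receptor-trafficking protein GABARAP, differed by 0.42 (SE 0.13, limma adjusted p = 0.259), with overlapping pools. Hap1, whose product is known to promote receptor recycling to the membrane, differed by -0.40 (SE 0.19, limma adjusted p = 0.417), and its pools overlapped too. Gphn, the gene of the synaptic scaffold gephyrin, differed by -0.017 (SE 0.087). Of 7 chloride transport genes none passed, and the median was 0.049. Clcn2, which encodes a chloride channel that opens on hyperpolarisation, was at -0.29, -0.22, -0.48 and -0.46 in ICSS replicates 1 to 4. In Sham replicates 1 to 4 it was at -0.069, 0.077, 0.20 and 0.27. Its pools did not overlap, and the difference of -0.48 (SE 0.088, limma adjusted p = 0.107) was larger than that of any of the 7 subunit genes. Slc12a2, the gene of a chloride importer, differed by 0.16 (SE 0.088).

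Among 7 genes of GABA synthesis, release and uptake none passed and the median was 0.0068. Gad2, a GABA-synthesising enzyme gene, differed by 0.26 (SE 0.12, limma adjusted p = 0.425) and Slc6a13, a GABA transporter gene known from the meninges, by 0.41 (SE 0.25, limma adjusted p = 0.533). Pools overlapped for both. For Slc6a13 only ICSS replicates 3 and 4 (0.16 and -0.11) lay above the Sham pools (-1.10 to -0.77). Of 4 GABA-B receptor genes none passed and the median was -0.017. Gabbr1, the gene of the subunit that binds GABA, differed by -0.19 (SE 0.081, limma adjusted p = 0.367) over 12 features, and Gabbr2, its partner, by 0.061 (SE 0.074). Of 5 neurosteroid synthesis genes none passed and the median was 0.055. In that list Hsd3b1 and Tspo differed by 0.29 (SE 0.19) and 0.27 (SE 0.22).

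**Figure D4:**
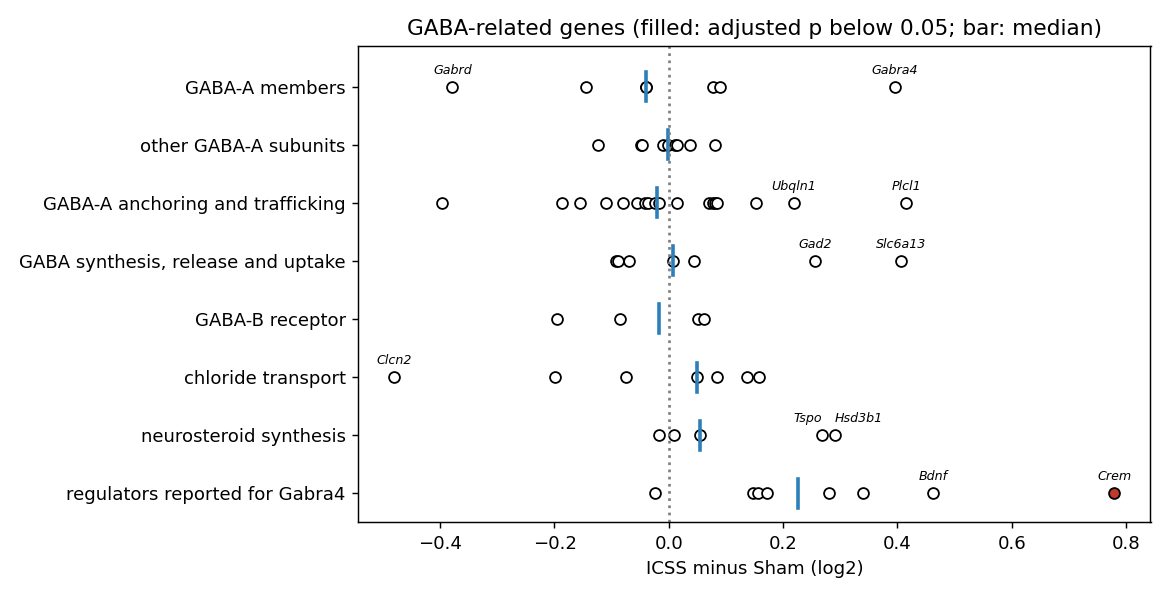
Each circle is the limma difference ICSS minus Sham (log2) of 1 gene, by list, with the 7 subunit genes in the top line; filled circles passed the adjusted threshold and blue bars mark the list's median. Crem, at 0.78, is the one filled circle, and the other GABA-A subunit genes lie close to 0.

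Genes reported in neurons to regulate transcription of Gabra4 or of other GABA-A alpha subunits formed a list set with the results for Bdnf and Crem known, so its count is no independent evidence of direction. Of 8 genes 1 passed, where 0.0461% of all units did, and the median was 0.23, against 0.0078 over all units. By their means 7 were higher and 1 was lower, where 18334 of 34738 units were higher. Crem, whose product ICER represses cAMP-driven transcription, rose by 0.78 (SE 0.077, limma adjusted p = 0.0134). Bdnf, a neurotrophin gene known to raise Gabra4 in rat neurons, ranged from 1.04 to 1.35 in ICSS pools, against 0.69 to 0.79 in Sham pools (0.46, SE 0.069, limma adjusted p = 0.0654). Egr3, of the early growth response factor family, was at -0.011, 0.46, 0.24 and 0.38 in ICSS replicates 1 to 4. In Sham replicates 1 to 4 it was at -0.15, -0.10, -0.026 and -0.015, a difference of 0.34 (SE 0.096, limma adjusted p = 0.209). Egr1, of the same factor family, did not pass and was the list's lower gene (-0.024, SE 0.075, limma adjusted p = 0.918), with overlapping pools. ICSS replicate 1 was the lowest ICSS pool for Gabra4, Egr3, Bdnf and Crem and the nearest to Sham for Gabrd. On the same list it was lowest for Creb1 and Jak2 too, but not for Egr1, Stat3 and Ntrk2. Those were lowest in ICSS replicates 4, 2 and 3. In Sham pools the order differed: replicate 4 was lowest for Gabra4 (-0.30) but highest for Egr3 (-0.015) and Bdnf (0.79). Crem, like Gabra4, was highest in Sham replicate 2. A link of these genes to Gabra4 was not tested. With single pools left out, the call of Crem was lost without ICSS replicate 2 or 3 or Sham replicate 1 or 3, where at most 1 unit in all passed.

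Because Gabra4 and Gabrd are known in dentate granule cells and thalamus, markers of these and other tissues are given beside them, and their part in the differences was not tested. Over all units, 18334 of 34738 were higher in ICSS pools by their means. The mean over 7 markers of dentate granule cells ranged from 0.48 to 0.57 in ICSS pools, against 0.56 to 0.77 in Sham pools, with 5 higher and 2 lower in ICSS pools. The lower ones, C1ql2 at -0.58 (SE 0.11) and Pdyn at -0.66 (SE 0.19), did not pass (limma adjusted p = 0.123 and 0.213). The 5 higher ones were Tdo2 at 0.17 (SE 0.067), Calb1 at 0.11, Trpc6 at 0.078, Prox1 at 0.069 and Lct at 0.065. The mean over 16 thalamic markers ranged from -0.61 to -0.29 in ICSS pools, against -0.66 to -0.57 in Sham pools, with 14 higher and 2 lower in ICSS pools. Ptpn3 and Vav3 had the smallest p there, at 0.26 (SE 0.063) and 0.35 (SE 0.15). Vav3 was above the reference in all 8 pools, against its label as a thalamic marker here. The markers far below the reference, Slc17a6 and Prkcd, differed by 0.031 (SE 0.26) and 0.40 (SE 0.21). All 5 CA1 markers were lower in ICSS pools by their means, and the list ranged from 0.17 to 0.48 in ICSS pools, against 0.44 to 0.59 in Sham pools, with Fibcd1 at -0.31 and Pou3f1 at -0.38. The 9 markers of CA2 and CA3 ranged from 0.26 to 0.38 in ICSS pools, against 0.22 to 0.36 in Sham pools, with 6 higher and 3 lower. Pcp4 differed by 0.25 and Amigo2 by 0.15, while Tgfb2, at -0.13, was the only one of these 9 whose pools did not overlap. Over all units 7.80% did not overlap, and on the dentate and thalamic lists C1ql2, Pdyn and Ptpn3 did not either. The mean over the 7 markers of all hippocampal fields overlapped between groups, with 3 higher and 4 lower. Crym, at -0.26, was the 1 marker of this list whose pools did not overlap, while Zbtb20 differed by -0.28 and Neurod2 by 0.37.

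Lists of other cell types overlapped between groups, and their ranges are given for ICSS pools first. Interneuron markers (16) ranged from -0.52 to -0.40 in ICSS pools, against -0.58 to -0.20 in Sham pools, with 7 higher and 9 lower, Kcnc1 at -0.27 and Gad2 at 0.26. Astrocyte markers (8) lay between -0.12 and 0.12 and between -0.11 and 0.046, with 5 higher and 3 lower, Sox9 at -0.43, Slc1a3 at -0.21, Gfap at 0.35 and Aqp4 at 0.28. Oligodendrocyte markers (7) lay between -0.22 and 0.32 and between -0.71 and 0.045, the lowest being Sham replicate 4, with 6 higher and 1 lower, Mobp at 0.40 and Mog at 0.48. Microglia markers (7) lay between -0.33 and 0.20 and between -0.37 and 0.59, with 1 higher and 6 lower, Trem2 at -0.46 and Csf1r at -0.090. Choroid plexus markers (7) lay between -0.63 and 0.055 and between -0.98 and 0.62, the highest being Sham replicate 1, with 5 higher and 2 lower, Otx2 at 0.44 and Kl at 0.21. None of the genes on the marker lists passed the adjusted threshold in limma.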

How the data were processed

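Per the labels, 8 two-colour arrays compared Cy5-labelled pools (4 ICSS, 4 Sham) with a Cy3-labelled common reference. The authors deposited 1 log ratio per feature and array, taken here as log2 because limma is named, without a version, in the submitters' processing notes. No source used here gives the background correction, the normalization or any filter. Spot intensities were not used, so dim probes could not be set apart. The reference is described in 2 ways: the sample labels list hippocampus, thalamus and cortex of the other side, the design text hippocampus of the electrode's side.

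Features were named through the platform annotation (25353 with 1 symbol, 48 with several, 19819 with none listed), with symbols brought up to date by Entrez identifier in the table of GRCr8 genes (25306 matched). The unit was the mean over the features of a gene, or an unnamed probe, 34738 units in all. ICSS was compared with Sham by limma 3.58.1 in R 4.3.3 (lmFit and eBayes, without covariates, two-sided). Adjusted p-values are Benjamini-Hochberg values across the units, with the threshold at 0.05. The fit was also run on simulated data with noise drawn independently for each unit, which leaves out variation that units share. Correlations, class means and ratios to the reference were not tested. Promoter windows came from RefSeq, where 6 of 7 genes matched.

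The members, classes, 10 pathway and 10 marker lists were chosen with earlier results of these data known. Named were the GABA-A subunit genes analysed (some are not reported here), in each other pathway list the called genes filled to 2 by p, in each marker list the 2 of smallest p, and the 3 genes most correlated with Gabra4 and Gabrd. Gphn, Hap1, Egr3, Egr1, Creb1, Jak2, Stat3, Ntrk2 and the chromosomal neighbours were named outside this rule, after their values were seen. So were the markers Tdo2, Calb1, Trpc6, Prox1, Lct, Slc17a6, Prkcd, Tgfb2, Neurod2, Gfap and Aqp4. Alternatives covered array scaling, a replicate block, robust moderation, array weights, named genes only, medians over features and single pools left out. Same-numbered ICSS and Sham pools did not deviate together (r from -0.053 to 0.058), so the numbers were not taken as pairs.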

Additional observations from a re-analysis of the deposited data

Results flagged for a closer look

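In 4 of 72 groups of 4 pools examined, 1 pool stood apart from the others by Dixon's test, and chance flags about 1 in 20 such groups. The extrasynaptic minus the synaptic mean was -0.34 in Sham replicate 4, against -0.057 to -0.012 in the other Sham pools, since Gabra4 was lowest and Gabra3 highest in that pool. The Gabra5 feature of the RefSeq transcript reached 1.43 in ICSS replicate 1 while the remaining ICSS pools had 1.17 to 1.20. Gabra6 was at 0.15 in Sham replicate 2, against 0.034 to 0.039 in the other Sham pools, and Gabre had 0.060 in ICSS replicate 1 and -0.16 to -0.12 elsewhere in that group.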

How the results depend on the processing

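None of the 7 genes or 9 features passed the adjusted threshold under any alternative run. Gabra4 kept its direction under all of them, with a difference from 0.32 to 0.45 and a limma adjusted p from 0.109 to 0.362, and so did Gabrd, with -0.48 to -0.26 and 0.122 to 0.452. With the replicate number as a block, Gabra4 and Gabrd had adjusted p values of 0.201 and 0.305, and the called genes on the pathway lists fell from 1 to 0, Crem being the gene, as did the calls over all units from 16 to 0. Leaving out single pools gave 0 to 2 called genes on the pathway lists, and 0 to 153 calls over all units, against 34 with array quality weights. The number of genes whose pools did not overlap, 1 as reported, was 2 with each array centred on its median and 2 with quantile normalization, Gabrd being the added gene in both (7.86% of all units under either), and 1 to 3 with single pools left out, namely 2 without ICSS replicate 1, where 12.9% of all units did not overlap, and 3 without Sham replicate 3, where 10.2% did not (alternatives added after the data were seen). With single pools left out, the differences of 2 genes changed sign: Gabra3 ranged from -0.13 to 0.089 and Gabrb2 from -0.13 to 0.037. So did those of the synaptic mean, from -0.016 to 0.084 around a reported 0.024, and of the extrasynaptic minus the synaptic mean, from -0.070 to 0.046 around 0.0070. With quantile normalization the latter was -0.015 and the extrasynaptic mean's difference, reported as 0.031, was -0.0044. With the RefSeq feature of Gabra5 alone, an alternative also added after the data were seen, the class difference was 0.012. The cause of these changes was not tested. No array intensities were used, so what signal over background limits was not examined.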
